A study of Mus musculus with 44 samples.

Results

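Rec8, Stag3, Smc1b, Sycp1, Sycp3, Syce2, Hormad1 and Tex15 are 8 genes of meiotic chromosome structure and germ cell function, taken by symbol from the gene tables of 44 mouse embryo libraries. Each symbol belongs to 1 of the 32287 gene identifiers listed, and no measured value was used to pick them. Levels are given as TPM, a unit of transcript abundance that is scaled for transcript length and for library size.

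In dividing body cells, cohesin rings made of Smc1a, Smc3, the kleisin Rad21 and either Stag1 or Stag2 hold sister chromatids together. Germ cells that enter meiosis bring in Smc1b, Rec8 and Stag3 as counterparts of Smc1a, Rad21 and Stag1 or Stag2, while Smc3 is shared. They build chromosome axes with Hormad1 and Sycp3. They join homologous chromosomes by the synaptonemal complex, with Sycp1 as its transverse filament and Syce2 in its central element. Tex15 is a germ cell protein needed for meiotic recombination and for transposon silencing in male germ cells. In body tissues such genes are known to be held silent by promoter DNA methylation and by a non-canonical Polycomb complex that contains E2f6 and Mga. The study drew up a germline gene list, meiotic genes included, on these same libraries, so the behaviour of such genes here is not independent evidence.

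Host morulae (CD1/G4) carrying mCherry under the EF1a promoter were aggregated with male GFP+ embryonic stem cells (G4) derived from a single clone. The methods name the parent stem cell line as F1G4 for both reporters and the mates of the mCherry+ males that kept up that colony as C57BL/6J, so the mCherry+ cells can carry C57BL/6J alleles too. By this design mCherry followed extraembryonic and GFP embryonic descent. At E6.5, epiblast (Epi), distal extraembryonic endoderm (exEndo 1) and proximal extraembryonic endoderm (exEndo 2) were dissected from single embryos, with n = 4 each. At E9.5, EPCAM+ cells were sorted from pools of 4 embryos as mCherry+ gut (exMidgut, exHindgut), GFP+ gut with low mCherry from remnants of mCherry+ cells they had taken up (emMidgut, emHindgut) and mCherry+ yolk sac endoderm (YsEndo), again with n = 4 each. At E13.5, EPCAM+ cells of colon and small intestine came from single embryos with n = 3 each, mCherry+ and labelled Trp53 knockout in exColon and exSI, and GFP+ and labelled wild-type in emColon and emSI. Cell descent and strain background differ together in each lineage comparison, as does Trp53 genotype at E13.5, and these cannot be told apart. By the methods, midgut and hindgut tissue came from the same E9.5 embryos, and each E13.5 intestine was split into colon and small intestine. The labels do not say which libraries share embryos, so counts of 8 libraries over both regions or 6 over both organs may not be separate embryos, and p-values over them may be too small. Host cells could be of either sex while GFP+ cells were male; all 8 genes are autosomal. In these bulk libraries, fewer cells of a type and less RNA per cell cannot be told apart either.

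Between 10382 and 13596 genes exceeded 1 TPM in a library. Read counts per gene were not used here, so the precision of a value is known only from the spread between libraries. Of 2886 protein-coding genes with a median above 50 TPM, 48 were listed at 0 somewhere, in 38 of the 44 libraries, so a 0 is reported as a listed value only. The labels were checked against markers. mCherry reached at least 1731 TPM in every mCherry+ library and at most 6.61 TPM in the others. A protocol text of the Epi samples names visceral endoderm, yet all 7 epiblast markers averaged above 1 TPM in Epi, with sums of 3059 to 4515 TPM, and 9 extraembryonic endoderm markers summed to at most 29.1 TPM there against 9813 to 14721 TPM in exEndo 1. Trp53, the gene that the E13.5 labels give as knocked out, was at 42.5, 124 and 122 TPM in exColon and at 33.4, 167 and 117 TPM in exSI, against 151, 226 and 245 TPM in emColon and 172, 158 and 201 TPM in emSI. Its transcript was thus still listed in all libraries labelled knockout, exSI replicate 2 lay within the emSI range, and a value over all exons does not show whether the gene was disrupted. Among the germ cell markers, Dppa3 stood at 224 and 183 TPM in emMidgut replicates 1 and 3 and was listed at 0 in emHindgut, YsEndo and all E13.5 libraries. In the same emMidgut replicates 1 and 3, Pou5f1 was at 93.6 and 131 TPM and Tfap2c at 13.8 and 10.5 TPM. Both were listed at 0 in emMidgut replicates 2 and 4.

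On mm10, the cohesin genes lie on chromosome 14 from 55618037 to 55625395 on the plus strand (Rec8), on chromosome 5 from 138280240 to 138312393 on the plus strand (Stag3) and on chromosome 15 from 85064689 to 85131964 on the minus strand (Smc1b). The synaptonemal genes lie on chromosome 3 from 102818499 to 102936100 on the minus strand (Sycp1), on chromosome 10 from 88459569 to 88473236 (Sycp3) and on chromosome 8 from 84872111 to 84888221 (Syce2), the last pair on the plus strand. Hormad1 lies on chromosome 3 from 95559677 to 95587671 and Tex15 on chromosome 8 from 33516738 to 33585582, both on the plus strand. Values cover all exons of a gene, and the library kit does not mark strand. Of the 1264 exon bases of Sycp3, 660 also belong to exons of Chpt1 on the opposite strand, which encodes a choline phosphotransferase. Syce2 overlaps Gcdh on the opposite strand with 0 shared exon bases.

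RefSeq promoter windows of GRCm38.p6, covering 250 bases before and 50 bases after a transcription start, were matched for 7 of the 8 genes. They are shown for Rec8 and Stag3, which were both higher in exEndo 1 than in Epi, and for Sycp3 and Syce2, which were both lower there. The windows are chr14:55617916-55618215 for Rec8, chr5:138280259-138280558 for Stag3, chr10:88459337-88459636 for Sycp3 and chr8:84872008-84872307 for Syce2, each 5′ to 3′ on the plus strand. Capitals mark CACGTG, the E-box letters, or GCGGGA, letters of an E2F-type site, read on either strand.
Rec8: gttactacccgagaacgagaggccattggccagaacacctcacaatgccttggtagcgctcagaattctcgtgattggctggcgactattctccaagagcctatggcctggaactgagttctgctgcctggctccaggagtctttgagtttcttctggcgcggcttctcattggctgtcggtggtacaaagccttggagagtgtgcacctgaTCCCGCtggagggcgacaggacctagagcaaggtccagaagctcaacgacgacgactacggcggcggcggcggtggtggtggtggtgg
Stag3: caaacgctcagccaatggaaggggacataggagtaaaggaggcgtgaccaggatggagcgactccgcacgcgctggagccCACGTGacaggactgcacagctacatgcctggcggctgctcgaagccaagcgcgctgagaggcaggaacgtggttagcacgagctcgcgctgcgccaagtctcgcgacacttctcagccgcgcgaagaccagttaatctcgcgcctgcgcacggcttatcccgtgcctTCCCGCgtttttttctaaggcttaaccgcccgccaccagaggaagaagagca
Sycp3: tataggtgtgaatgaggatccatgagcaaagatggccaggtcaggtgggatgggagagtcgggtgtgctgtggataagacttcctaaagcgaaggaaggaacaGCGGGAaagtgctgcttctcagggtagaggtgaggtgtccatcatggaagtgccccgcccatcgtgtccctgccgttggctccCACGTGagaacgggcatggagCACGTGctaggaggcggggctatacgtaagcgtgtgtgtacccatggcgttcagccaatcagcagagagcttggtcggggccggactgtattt
Syce2: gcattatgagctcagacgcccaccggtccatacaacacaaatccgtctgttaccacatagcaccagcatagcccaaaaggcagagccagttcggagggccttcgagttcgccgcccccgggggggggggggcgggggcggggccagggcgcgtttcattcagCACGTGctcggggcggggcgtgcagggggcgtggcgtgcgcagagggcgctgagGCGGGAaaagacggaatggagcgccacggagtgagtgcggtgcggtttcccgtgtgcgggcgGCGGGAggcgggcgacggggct
The 7 genes had 9 windows, since Syce2 and Hormad1 have 2 each that overlap. GCGGGA was found in at least 1 window of 7 of the 7 genes, against 20.0% of the 32851 windows in the table, and CACGTG in 5 of 7, against 7.15%, so genes are set beside single windows. The other Syce2 window, which starts at 84871861, held 0 CACGTG and 19 CG. Rec8 and Smc1b had no CACGTG in these windows. TGACGTCA, the cyclic AMP response letters, was found in 0 of the 7 and in 1.79% of all windows. No marked motifs overlapped each other. CG dinucleotides numbered 15 (Sycp3) to 33 (Syce2) per 300 bases, against a median of 7 over all windows, and members were not matched to other windows for CG content, so the shares are a description only.

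The 8 genes were expressed at very different levels. Syce2 exceeded 1 TPM in 44 of 44 libraries, Rec8 in 39, Stag3 in 36, Tex15 in 27, Sycp3 in 21, Sycp1 in 17, Hormad1 in 10 and Smc1b in 3. The median over all libraries was 90.6 TPM for Syce2, 8.07 TPM for Rec8, 3.30 TPM for Stag3 and 2.08 TPM for Tex15, and below 1 TPM for the others. The genes did not follow a common pattern. On log2(TPM + 1) over the 44 libraries, which share stages and lineages, Pearson's r between pairs ran from -0.21 (Rec8 with Sycp3) to 0.80 (Smc1b with Hormad1), the latter pair being near 0 in most libraries. Smc1b and Hormad1 were both highest in exColon replicate 2, at 14.8 and 16.5 TPM, so that r can rest on few libraries.

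**Figure D1:**
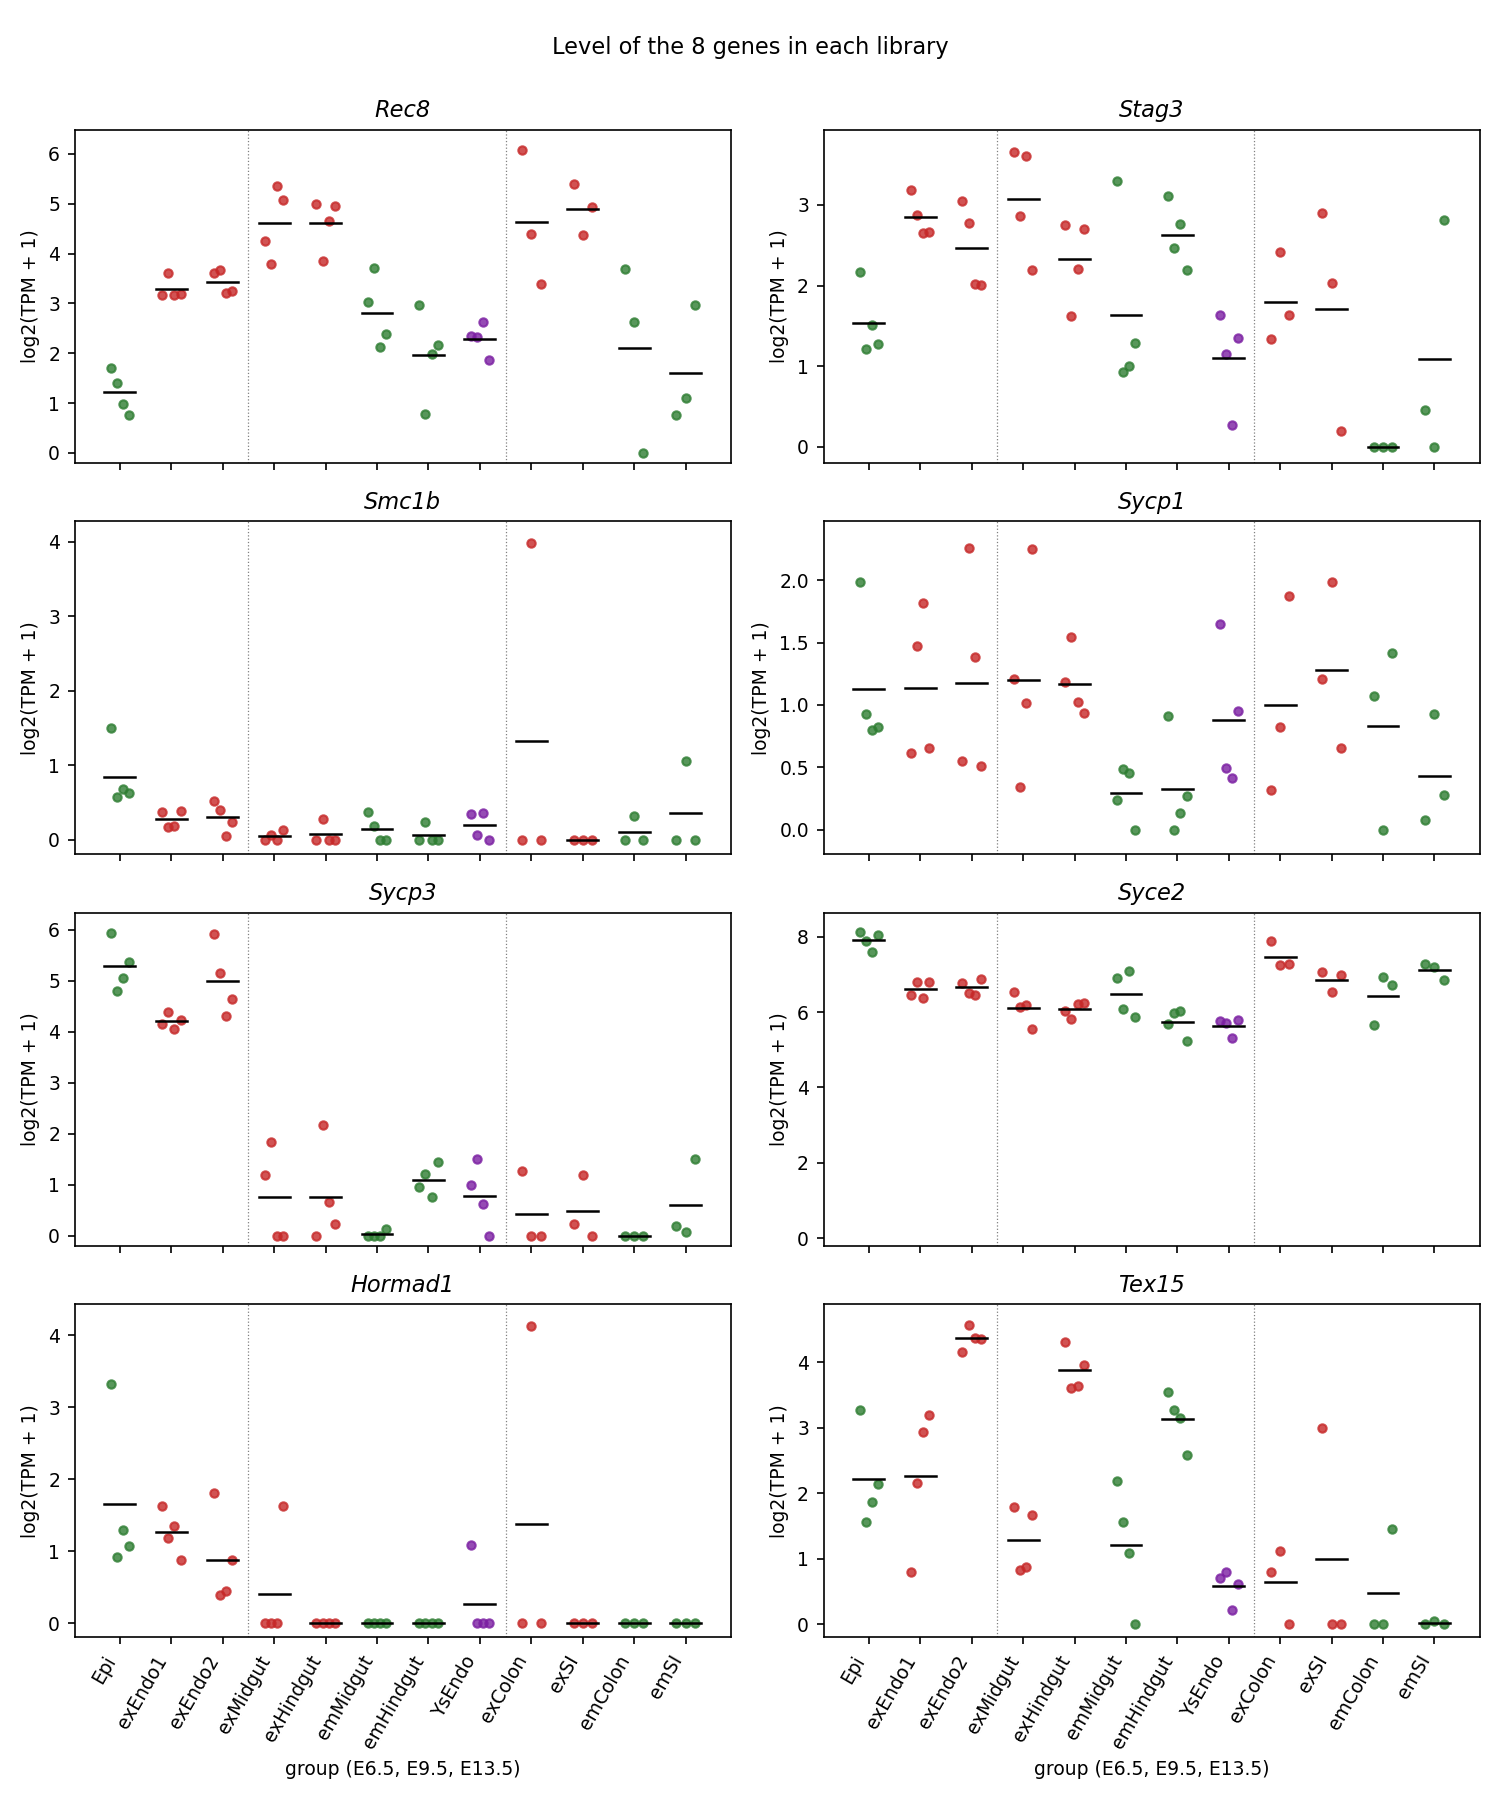
Level of each gene as log2(TPM + 1) in every library (points), with the group mean as a bar, for the 12 groups in order of stage; dotted lines separate E6.5, E9.5 and E13.5, red marks mCherry+ groups other than YsEndo (purple) and green marks Epi and GFP+ groups. Rec8 lies highest in the exGut, exColon and exSI groups, Sycp3 is high at E6.5 alone, and Tex15 is high in exEndo 2 and both hindgut groups.

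Rec8, the meiotic kleisin, separated extraembryonic from embryonic gut at E9.5. Its level in exMidgut replicates 1 to 4 was 18.0, 12.8, 39.7 and 32.9 TPM, and in exHindgut 31.0, 13.4, 24.2 and 30.0 TPM. In emMidgut it was 7.18, 12.1, 3.34 and 4.27 TPM, and in emHindgut 6.86, 0.723, 2.94 and 3.47 TPM. All 8 exGut libraries lay above all 8 emGut libraries, although the lowest exMidgut value exceeded the highest emMidgut value only slightly. Means were 25.2 ± 9.80 TPM in exGut and 5.11 ± 3.52 TPM in emGut (SD, n = 8 each). The difference was 2.22 ± 0.35 on the log2(TPM + 1) scale (SE) with an adjusted p of 6.83e-04 (limma, Benjamini-Hochberg over all 13460 genes tested), and 1.06% of those genes were called higher in exGut and 1.26% lower. Calling took both an adjusted p below 0.05 and a log2 change beyond 1 in either direction. Over the 26 alternative settings the change ran from 1.99 to 2.51, and every setting kept the call.

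By region, Rec8 was higher by 2.64 ± 0.43 in exHindgut than in emHindgut (adjusted p = 0.00249), where 1.36% of genes were called higher and 1.7% lower, and by 1.80 ± 0.43 in exMidgut than in emMidgut (adjusted p = 0.0320), where 1.2% were called higher and 1.34% lower. The call in midgut was lost on leaving out exMidgut replicate 3 (1.56, adjusted p = 0.0977) or 4 (1.64, 0.0923), or emMidgut replicate 1 (1.87, 0.0602), 3 (1.57, 0.0918) or 4 (1.66, 0.0913). Leaving out both emMidgut replicates 1 and 3, which carry Dppa3, gave 1.56 with an adjusted p of 0.228 in midgut, and 2.28 with an adjusted p of 0.00251 for exGut against emGut. The difference of the difference between regions was 0.84 ± 0.65 for Rec8 (adjusted p = 0.834), and 0 of the 6 members tested were called in that test by limma, with 1 at an unadjusted p under 0.05. Of all genes, 0.0966% were called there, and 1049 of 13460 had an unadjusted p under 0.05.

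Summed, the extraembryonic endoderm markers moved with this contrast. Their sum was 7183 to 13631 TPM in exMidgut against 889 to 1530 TPM in emMidgut, and 1438 to 1942 TPM in exHindgut against 28.4 to 75.1 TPM in emHindgut. Afp alone was at 4641 to 8162 TPM in exMidgut and 662 to 978 TPM in emMidgut. Of 9 tested between exGut and emGut, 2 were called higher by limma, where 1.06% of all genes were. By region, 7 of 9 were called higher in midgut (1.2% of all genes) and 4 of 8 in hindgut (1.36%). Each of the 9 markers was above 0 in at least 1 library of emMidgut and of emHindgut, and 1 of the 9 was listed at 0 throughout exHindgut. The 10 germ cell markers summed to 84.8 to 136 TPM in exMidgut and 105 to 513 TPM in emMidgut, and to 70.2 to 94.99 TPM in exHindgut and 54.9 to 88.5 TPM in emHindgut. These sums include Prdm1, at 54.5 to 101 TPM in exMidgut and 66.0 to 101 TPM in emMidgut. They also include Kit, at 14.5 to 50.4 TPM in the midgut groups and 28.7 to 49.9 TPM in the hindgut groups. Dppa3 was at most 0.462 TPM in exMidgut and was listed at 0 in emMidgut replicates 2 and 4. The part of either list in the Rec8 difference was not tested. YsEndo, where the 9 extraembryonic endoderm markers summed to 51144 to 59435 TPM, had Rec8 at 4.12, 3.99, 5.21 and 2.65 TPM, below every exGut library.

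Stag3, the meiotic paralogue of Stag1 and Stag2, was at 11.6, 6.26, 11.2 and 3.58 TPM in exMidgut and at 5.75, 2.09, 3.63 and 5.54 TPM in exHindgut. It was at 8.87, 0.909, 1.01 and 1.45 TPM in emMidgut and at 7.63, 4.52, 5.79 and 3.59 TPM in emHindgut, so the groups overlapped. Its change between exGut and emGut was 0.57 ± 0.40 (adjusted p = 0.521). The changes by region had opposite signs, 1.45 ± 0.56 in midgut (adjusted p = 0.200) and -0.31 ± 0.38 in hindgut (adjusted p = 0.728), and their difference of -1.76 ± 0.69 did not pass (adjusted p = 0.507).

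Sycp1 was low throughout, with a highest value of 3.80 TPM in any library. It ranged from 0.268 to 3.76 TPM in exGut and from 0 to 0.878 TPM in emGut, for a change of 0.88 ± 0.27 (limma, adjusted p = 0.0846). Only exGut libraries held Sycp1 above 1 TPM, so it passed the filter through the group where it was higher. Sycp3 (0.20 ± 0.38, adjusted p = 0.856), Syce2 (-0.02 ± 0.22, adjusted p = 0.980) and Tex15 (0.41 ± 0.61, adjusted p = 0.807) were not called either. Syce2 was at 45.6 to 91.1 TPM in exMidgut and 57.4 to 136 TPM in emMidgut. It was at 55.4 to 74.7 TPM in exHindgut and 36.8 to 64.1 TPM in emHindgut. All 8 members summed to 138 and 141 TPM in emMidgut replicates 1 and 3, against 81.8 and 63.2 TPM in replicates 2 and 4. Over the alternatives the Syce2 change ran from -0.14 to 0.28 between exGut and emGut, and from -0.59 to 0.13 in midgut. Smc1b and Hormad1 exceeded 1 TPM in fewer than 4 of the exGut and emGut libraries and were not tested. Smc1b was at most 0.292 TPM in any of them, and Hormad1 was listed at 0 in all but exMidgut replicate 4, at 2.08 TPM.

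Other genes of the meiotic pathway were counted from lists chosen with earlier results known. Between exGut and emGut, 0 of 17 tested genes of the list of other cohesin subunits and regulators were called by limma (6 at an unadjusted p under 0.05), as were 0 of 10 other synaptonemal complex and axis genes (2 at that p), 0 of 1 tested meiotic entry gene and 0 of 20 germline gene repressors (2 at that p). Of 16 tested meiotic recombination genes, 1 was called, Tex11, an X-linked gene for a protein that stabilises meiotic crossovers. Tex11 was at 3.33 to 7.99 TPM in exMidgut and 0.210 to 5.78 TPM in exHindgut, against 0 to 0.0606 TPM in emMidgut and 0 in all emHindgut libraries. Its change was 2.23 on the log2(TPM + 1) scale (limma, adjusted p = 3.33e-04). Only exGut libraries held Tex11 above 1 TPM, so it passed the filter through the group where it was higher. That p is a description only. Of all 86 genes on these lists, 64 were tested here, with 1 called higher and 0 lower by limma and 12 at an unadjusted p under 0.05. Over all genes, 1.06% were called higher and 1.26% lower, and 2220 of 13460 had such a p. The list counts lay near these shares. The 64 include 17 cohesin genes and 20 repressors, while 1 of 10 meiotic entry genes was tested. The pooled counts thus cannot decide whether the meiotic genes alone shifted. Against YsEndo, 14 of 60 tested were called higher and 2 lower in exGut, where 32.3% of all genes were called higher and 10% lower. Between hindgut and midgut 3 of 64 were higher and 0 lower, where 5.55% of all genes were higher and 8.62% lower. At E13.5, 0 of 59 were called over both organs by limma, with 5 at an unadjusted p under 0.05. Of all genes, 0.626% were called there and 1411 of 12470 had such a p.

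Between the E6.5 tissues, Rec8 was higher and Syce2 lower in both endoderm groups than in Epi. Rec8 was at 2.24, 1.65, 0.984 and 0.706 TPM in Epi, at 8.03, 11.3, 8.06 and 8.07 TPM in exEndo 1, and at 11.2, 11.8, 8.30 and 8.46 TPM in exEndo 2. Both endoderm groups lay above Epi in every library, by 2.07 ± 0.22 in exEndo 1 (adjusted p = 1.06e-05) and by 2.22 ± 0.22 in exEndo 2 (adjusted p = 3.67e-06). Of all genes tested, 19.8% were called higher and 13.6% lower in exEndo 1 than in Epi, and 20.4% higher and 15.4% lower in exEndo 2. These comparisons share the Epi libraries. Stag3 was higher by 1.30 ± 0.23 in exEndo 1, with 8.12, 6.36, 5.29 and 5.33 TPM against 3.49, 1.32, 1.85 and 1.42 TPM in Epi (adjusted p = 4.81e-04). In exEndo 2 its change of 0.92 ± 0.28 had an adjusted p of 0.0133 but missed the fold threshold, which it passed without Epi replicate 1 (1.13, adjusted p = 0.00501), exEndo 2 replicate 3 (1.07, 0.00901) or exEndo 2 replicate 4 (1.07, 0.00925), and with a pseudocount of 0.1 (1.21, 0.0152).

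Sycp3, the axis protein used to stain meiotic chromosomes, was at 60.5, 26.7, 32.3 and 40.6 TPM in Epi. It was at 16.8, 20.0, 15.7 and 17.9 TPM in exEndo 1, lower by a change of -1.08 ± 0.22 (adjusted p = 0.00130). Without Epi replicate 1 that change was -0.86 (adjusted p = 0.00201), short of the fold threshold. In exEndo 2 it was at 59.3, 34.5, 18.8 and 24.1 TPM, overlapping Epi, with a change of -0.29 ± 0.33 (adjusted p = 0.460). Syce2 fell from 279, 234, 191 and 265 TPM in Epi to 86.6, 110, 82.2 and 109 TPM in exEndo 1, and to 109, 90.1, 87.2 and 117 TPM in exEndo 2. Its changes were -1.31 ± 0.15 (adjusted p = 1.99e-05) and -1.25 ± 0.15 (adjusted p = 1.43e-05), with no overlap. Hormad1, which marks unsynapsed axes, was at 9.05, 0.887, 1.45 and 1.09 TPM in Epi and at 0.310 to 2.50 TPM in both endoderm groups, and was not called (adjusted p = 0.476 and 0.186). Smc1b and Sycp1 were not tested in these comparisons: Smc1b was at 0.490 to 1.83 TPM in Epi and at most 0.431 TPM in the endoderm groups.

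Tex15 separated the endoderm regions. It was at 16.9 to 22.7 TPM in exEndo 2, and at 0.732, 3.47, 6.69 and 8.15 TPM in exEndo 1, a change of -2.09 ± 0.42 for exEndo 1 against exEndo 2 (adjusted p = 0.00733), where 2.45% of genes were called lower and 3.96% higher. Against Epi, with 8.64, 1.97, 2.67 and 3.41 TPM, Tex15 was higher by 2.15 ± 0.31 in exEndo 2 (adjusted p = 6.43e-05) and differed by 0.06 ± 0.50 in exEndo 1 (adjusted p = 0.928). The other 6 members tested were not called between the endoderm groups, and all 16 alternatives kept the Tex15 call. Sycp3 had a change of -0.79 ± 0.28 there (adjusted p = 0.0896), and -1.03 without exEndo 2 replicate 3 (adjusted p = 0.0342). Of 7 extraembryonic ectoderm markers, 6 averaged above 1 TPM in exEndo 2 and 2 in exEndo 1. Their sum went the other way, at 10.4 to 44.6 TPM in exEndo 2 and 39.0 to 93.5 TPM in exEndo 1. Among them, Elf5 was at 0.155, 7.02, 0.659 and 6.51 TPM in exEndo 2 and at most 2.74 TPM in exEndo 1. The part of ectoderm cells in the Tex15 difference was not tested.

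Of 62 pathway genes tested between exEndo 1 and Epi, 3 were higher and 9 lower, and of 65 between exEndo 2 and Epi, 4 were higher and 9 lower. Over all genes these shares were 19.8% higher and 13.6% lower in exEndo 1, and 20.4% higher and 15.4% lower in exEndo 2. From these, 3 genes are given as examples that were picked after their values were seen. Prdm9, which sets meiotic recombination sites, averaged 9.44 TPM in exEndo 1 and 10.0 TPM in exEndo 2 against 0.972 TPM in Epi. Dmc1, the meiotic recombinase, averaged 0.470 and 0.166 TPM against 7.39 TPM in Epi. Dnmt3b, the de novo DNA methyltransferase, averaged 308 and 183 TPM against 1465 TPM in Epi.

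Against YsEndo, the exGut groups were higher in Rec8 by 2.32 ± 0.31 (adjusted p = 1.51e-05), in Stag3 by 1.60 ± 0.40 (adjusted p = 0.00297) and in Tex15 by 2.00 ± 0.65 (adjusted p = 0.0160). These share the exGut libraries with the comparison to emGut, and 32.3% of the 12789 genes tested were called higher and 10% lower, so 3 of 6 members is to be read against that. YsEndo libraries held Stag3 at 2.10, 1.22, 0.205 and 1.55 TPM and Tex15 at 0.165 to 0.742 TPM. Tex15 thus passed the filter through exGut libraries alone, the group where it was higher, so its p is a description only. The median of all genes was 0.59 higher in exGut on the log2(TPM + 1) scale and 0.04 after quantile normalization. With that normalization Rec8 was at 1.51 and stayed called, while Stag3 (0.52, adjusted p = 0.300) and Tex15 (0.95, adjusted p = 0.267) were not. Syce2 had a change of 0.45 ± 0.17 (adjusted p = 0.0341), under the fold threshold, and of -0.12 with median-ratio rescaling (adjusted p = 0.551).

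**Figure D2:**
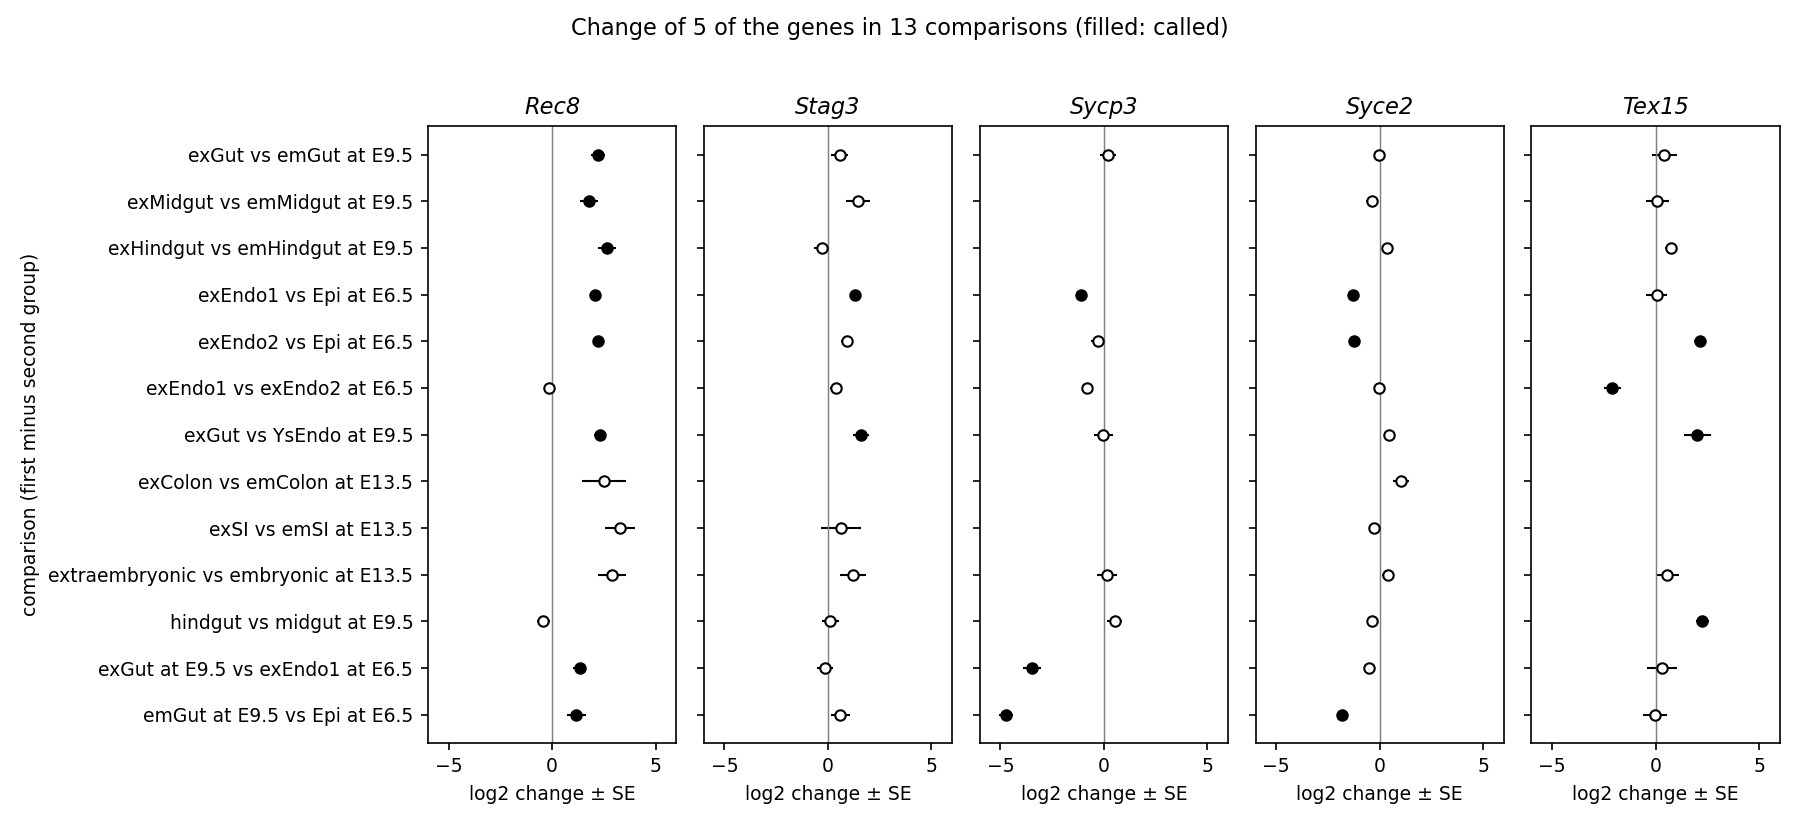
Log2 change (first minus second group, on the log2(TPM + 1) scale) with its SE for 5 of the genes in each comparison where the gene was tested and neither group was listed wholly at 0; filled points were called. Rec8 is on the higher side in the lineage comparisons at all 3 stages, and called at E6.5 and E9.5, while the points for Sycp3 and Syce2 lie to the left in both endoderm groups against Epi and in both comparisons across stages.

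At E13.5, Rec8 was at 67.0, 20.1 and 9.53 TPM in exColon and at 41.1, 19.7 and 29.8 TPM in exSI. In emColon it was at 11.9, 5.14 and 0 TPM and in emSI at 0.702, 1.14 and 6.85 TPM. The small intestine groups did not overlap, and the colon groups did through exColon replicate 3 and emColon replicate 1. The change over both organs was 2.91 ± 0.67 with an adjusted p of 0.0540, which missed the threshold; it was 3.29 ± 0.72 in small intestine (adjusted p = 0.0737) and 2.52 ± 1.07 in colon (adjusted p = 0.473). Rec8 was called over both organs without exColon replicate 3 (3.22, adjusted p = 0.0435) or emColon replicate 1 (3.30, 0.0257), and in small intestine without emSI replicate 3 (3.97, 0.0275). By limma 0 members were called at this stage, with 1 of 6 tested over both organs, 3 of 4 in colon and 1 of 3 in small intestine at an unadjusted p under 0.05. Of all genes, 1411 of 12470 over both organs, 1101 of 11158 in colon and 1170 of 11367 in small intestine had such a p. Stag3, among the 4 tested in colon, was listed at 0 in emColon and passed the filter through exColon alone. Few genes at all were called: 0.626% over both organs, 0.269% in colon and 0.739% in small intestine. The 9 extraembryonic endoderm markers moved with this contrast too, summing to 4288 to 7217 TPM in exColon against 1385 to 2090 TPM in emColon and to 3795 to 5942 TPM in exSI against 739 to 1267 TPM in emSI. Of the 8 tested over both organs, 4 were called higher, and their part in the Rec8 difference was not tested.

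Stag3 at E13.5 was at 1.54, 4.34 and 2.10 TPM in exColon and was listed at 0 in all 3 emColon libraries. In exSI it was at 6.48, 3.10 and 0.144 TPM, and in emSI at 0.375, 0 and 6.02 TPM, so the organs differed in how the groups overlapped. Syce2 was at 233, 150 and 153 TPM in exColon and at 49.1, 120 and 104 TPM in emColon (1.03 ± 0.38, adjusted p = 0.404). It was at 132, 91.4 and 126 TPM in exSI and at 155, 146 and 115 TPM in emSI (-0.25 ± 0.25, adjusted p = 0.792). Smc1b and Hormad1 were at 14.8 and 16.5 TPM in exColon replicate 2, and Hormad1 was listed at 0 in all other E13.5 libraries. Smc1b was at most 1.09 TPM in the others. In exColon replicate 2 Dppa3, Dazl, Ddx4 and Stra8 were listed at 0, while Nanos3 was at 2.47, Kit at 45.2 and Prdm1 at 38.5 TPM. Whether that library held germ cells was not tested.

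3 further comparisons were chosen after the values were seen. Tex15 was higher in hindgut than in midgut at E9.5 by 2.26 ± 0.31 (adjusted p = 4.95e-06), where 5.55% of genes were called higher and 8.62% lower. It was at 11.3 to 18.9 TPM in exHindgut and 5.03 to 10.7 TPM in emHindgut, against 0.782 to 2.46 TPM in exMidgut and 0 to 3.54 TPM in emMidgut, with no overlap between regions. Tex15 in exHindgut also lay above emHindgut in every library, with a change of 0.74 ± 0.30 that did not pass (adjusted p = 0.185). No other member was called between the regions.

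Between E6.5 and E9.5, Rec8 and Sycp3 changed in opposite directions along the extraembryonic line. Isolation, pooling of embryos and input, few sorted cells against dissected tissues, differ between these stages as well and cannot be told apart from stage. From exEndo 1 to exGut, Rec8 rose by 1.33 ± 0.30 (adjusted p = 0.00209), and Sycp3 changed by -3.45 ± 0.43 (adjusted p = 1.59e-05), from 15.7 to 20.0 TPM to at most 3.48 TPM. Hormad1 changed by -1.06 ± 0.35 (adjusted p = 0.0209), and that call was lost with FPKM in place of TPM (-0.67, adjusted p = 0.0275). From Epi to emGut, Sycp3 changed by -4.73 ± 0.35 (adjusted p = 8.40e-08) and Syce2 by -1.81 ± 0.28 (adjusted p = 1.03e-04), with no overlap. Rec8 changed by 1.18 ± 0.44 (adjusted p = 0.0365) with overlapping groups, a call kept by 9 of 20 alternatives. It was lost without Epi replicate 2 (adjusted p = 0.0627), 3 (0.0937) or 4 (0.110), emMidgut replicate 1 (0.0579) or 2 (0.0516), or emHindgut replicate 1 (0.0564). In the first of these comparisons 18.8% of genes were called higher and 11.5% lower, in the second 22.4% higher and 7.31% lower.

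**Figure D3:**
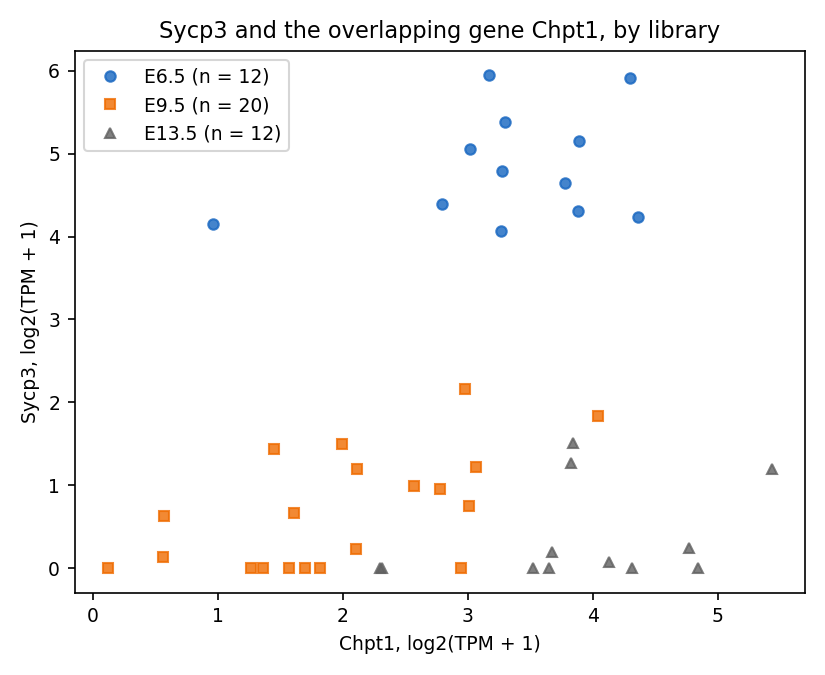
Sycp3 against the overlapping opposite-strand gene Chpt1, both as log2(TPM + 1), 1 point per library, by stage. The E6.5 libraries, at 15.7 to 60.5 TPM of Sycp3, lie above all later ones at Chpt1 levels that the later libraries share or exceed.

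Because Sycp3 shares exon bases with Chpt1, both were set side by side. Chpt1 averaged 8.15 TPM in Epi, 8.75 TPM in exEndo 1 and 14.7 TPM in exEndo 2, and 31.98 TPM in exSI, where Sycp3 was at 0.1802, 1.28 and 0 TPM. Pearson's r between them was 0.28 over the 44 libraries, as a description. Reads from the shared bases cannot be told apart between these genes.

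As a part of its paralogue family, Rec8 was highest in the extraembryonic gut groups. Rec8 made up 35.9 ± 13.6% of the summed TPM of Rec8 and Rad21 in exMidgut and 29.2 ± 10.3% in exHindgut, against 12.9 ± 8.10% in emMidgut, 5.35 ± 3.55% in emHindgut, 8.04 ± 2.51% in YsEndo and 2.16 ± 1.17% in Epi (SD, n = 4 each). At E13.5 the mean was 41.4% in exColon and 45.5% in exSI, and 13.02% in emColon and 5.86% in emSI. Rad21, the mitotic kleisin, was at 52.1 ± 11.9 TPM in exGut and 52.4 ± 9.99 TPM in emGut (SD, n = 8 each), a change of -0.02 ± 0.15 (adjusted p = 0.974). Stag1, Stag2 and Smc3 were not called between these groups, and Smc1a had a change of -0.52 ± 0.17 (adjusted p = 0.0988). Stag3 was a smaller part of its family, from 0 in emColon to 11.8 ± 5.32% in exMidgut (SD, n = 4). Smc1b made up at most 3.52% of Smc1a plus Smc1b in any library but exColon replicate 2, at 30.4%.

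**Figure D4:**
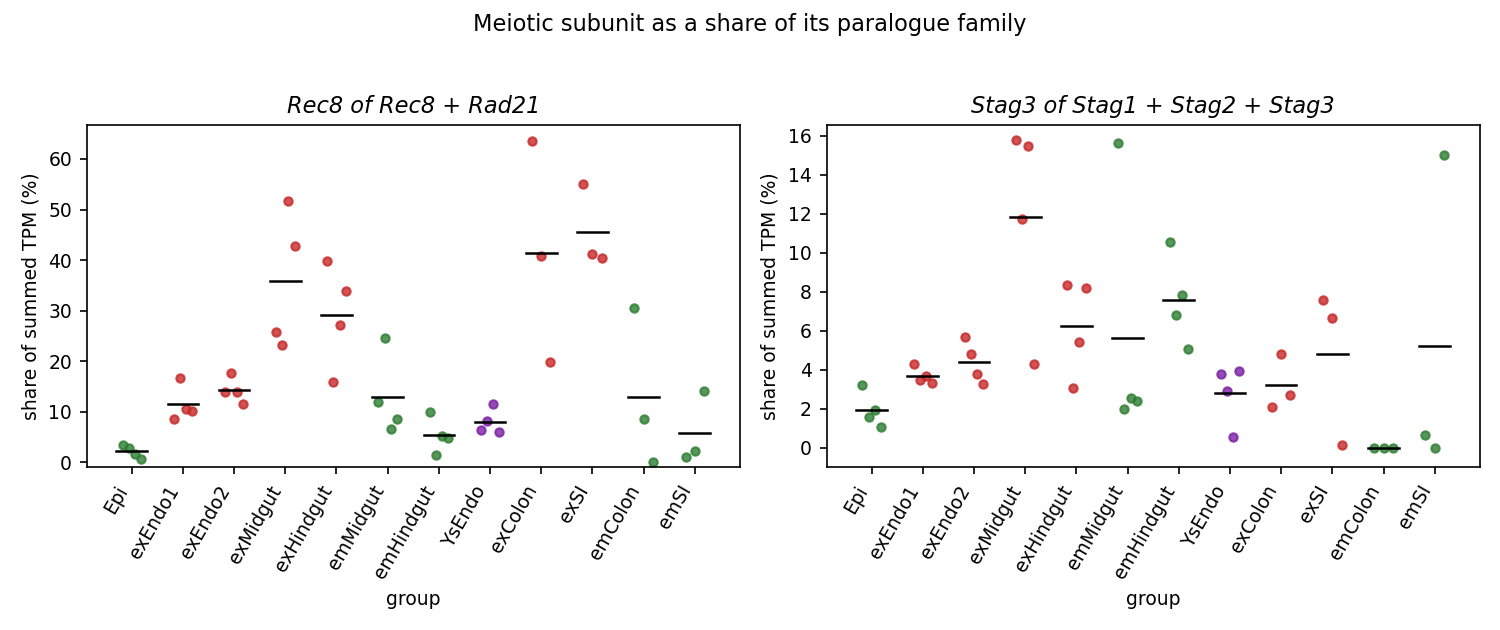
Share of Rec8 in the summed TPM of Rec8 and Rad21 (left) and of Stag3 in that of Stag1, Stag2 and Stag3 (right), in percent, for every library (points) with the group mean as a bar, in order of stage. Rec8 reaches 63.5% in exColon replicate 1 and stays under 4% in Epi; Stag3 stays under 16% in every library.

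In the order of group means, Rec8 ran exColon, exSI, exMidgut, exHindgut, exEndo 2, exEndo 1, emMidgut, emColon, YsEndo, emHindgut, emSI and Epi. Of the 11 neighbouring pairs in that order, 1 had ranges that did not overlap, exHindgut and exEndo 2. For Sycp3 the only such step was from exEndo 1 to emHindgut, for Stag3 from YsEndo to emColon, and for Tex15 from exHindgut to emHindgut and from YsEndo to emSI. Smc1b, Sycp1, Syce2 and Hormad1 had no such step.

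Other genes were ranked by likeness of pattern, as Pearson's r of log2(TPM + 1) over the 44 libraries among 14669 genes. Nearest to Rec8 were Gm14443 (r = 0.79), Sfi1 (0.77) and Cdkn2a (0.75), and to Stag3 Kdm5a (0.74), Wdr11 (0.70) and Lrif1 (0.69). Nearest to Sycp3 were Taf1d (0.94), Odc1 (0.94) and C130032M10Rik (0.93), and to Syce2 Gm5148 (0.74), Sub1 (0.72) and Polr2f (0.68). Nearest to Tex15 were Msx1 (0.86), Has2 (0.81) and Axin2 (0.80), to Hormad1 Fbxo47 (0.77), Them5 (0.70) and Ntrk2 (0.69), and to Sycp1 Plp2 (0.56), Gm6169 (0.56) and Tex19.1 (0.55). Smc1b missed the filter for this ranking, with 3 libraries above 1 TPM, and has no such genes. Libraries share stage and lineage, so a high r can come from differences between groups alone. For Hormad1, listed at 0 in 29 libraries and highest in exColon replicate 2, it can also rest on few libraries.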

How the data were processed

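Libraries were 44 low-input poly(A) libraries. By the methods, those at E9.5 and E13.5 were made from few sorted cells and those at E6.5 from dissected tissues. Per the labels and methods, the authors used cutadapt 4.1 for trimming and STAR 2.7.9a for alignment to mm10 with GFP and mCherry added, and quantified GENCODE VM23 genes with StringTie 2.0.6 in estimation mode. The deposited values are TPM, FPKM and coverage (mean read depth per base); TPM was used, and FPKM as an alternative. Rows of a gene identifier were summed. The coverage the authors deposited behind Rec8 was 0 to 152 per base. Gene types came from GENCODE vM21 (mm10) and promoters from RefSeq (GRCm38.p6).

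Values were compared as log2(TPM + 1), which understates changes of low genes, by limma 3.58.1 in R 4.3.3 (eBayes with trend, two-sided), adjusted by Benjamini-Hochberg over all genes of a comparison. Protein-coding genes off the Y chromosome that exceeded 1 TPM in 4 or more libraries of a comparison, or 3 at E13.5, were tested. The threshold for a call was an adjusted p below 0.05 with a log2 change beyond 1 in either direction, and for the interaction the adjusted p alone. Libraries of a group came from separate embryos or pools of embryos. Descriptions used Python 3.11.15, NumPy 2.4.6, pandas 2.3.3 and Matplotlib 3.10.9.

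The genes, lists and tests were chosen with earlier results of these data known. Genes named are the 8 members, up to 3 called genes per list and direction between exGut and emGut, the mitotic cohesin subunits and the 3 genes most like each of 7 members (Smc1b missed the filter); others are named as picked after their values were seen. Alternatives were a pseudocount of 0.1, no filter, FPKM, quantile normalization, median-ratio rescaling, no trend, all gene types, each library left out, emMidgut replicates 1 and 3 left out, a replicate block, and a region covariate or no organ covariate. Between exEndo 1 and exEndo 2, deviations from the group means correlated at 0.167 to 0.402 in 4 of 4 pairs of the same replicate number. In the other comparisons they correlated at -0.167 to 0.195. A low correlation does not show that samples came from different embryos, so pairing in those comparisons is unknown. The block changed no call of a member between exEndo 1 and exEndo 2.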

Additional observations from a re-analysis of the deposited data

Results flagged for a closer look

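In each group of 4 libraries, the highest and lowest value of a gene were compared with the group's range by Dixon's criterion. Of 61 sets, 11 held a value far from the other 3 libraries, 10 of them on the high side, and chance alone gives about 1 in 20. In 5 of the 11 the other 3 libraries were all listed at 0, which meets the criterion by construction, so that rate does not apply to them and 6 remain. Groups of 3 were not looked at.

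Epi replicate 1 gave 3 of the 11: Hormad1 at 9.05 TPM against at most 1.45 TPM in the other Epi libraries, Sycp1 at 2.96 TPM against at most 0.897 TPM, and Smc1b at 1.83 TPM against at most 0.595 TPM. The library was the highest of Epi for the other 5 genes as well. It also held Dppa3 at 19.2 TPM against 2.56 to 4.81 TPM in the other Epi libraries. Dazl was at 7.73 TPM against 0.407 to 0.780 TPM, and Ddx4 at 9.62 TPM against 3.62 to 5.32 TPM. Nanos3, Kit and Tfap2c went the other way and were lowest of Epi there. Rec8 stood apart at 11.3 TPM in exEndo 1 replicate 2, and Stag3 at 8.87 TPM in emMidgut replicate 1, a library with Dppa3 at 224 TPM. Syce2 was low at 38.5 TPM in YsEndo replicate 3.

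The remaining values were near 0 in the rest of their group. Hormad1 was at 2.08 TPM in exMidgut replicate 4 and at 1.12 TPM in YsEndo replicate 1, with 0 listed in the other libraries of both groups. Smc1b was at 0.210 TPM in exHindgut replicate 2 and at 0.178 TPM in emHindgut replicate 2, and Sycp3 at 0.0985 TPM in emMidgut replicate 4. What set these libraries apart was not tested.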

How the results depend on the processing

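No called member changed direction under an alternative, while members that were not called could change sign, as Tex15 did in midgut (-0.32 to 0.60). Of the values of single genes under an alternative, 1401 kept their side of the threshold, 9 gained and 24 lost a call. Counts of calls stayed within 1.5 times in 728 cases and moved further in 67. The Rec8 call between exGut and emGut held under all 26 alternatives. Read depth could not be taken from TPM, so what depth limits is unknown, and genes near 1 TPM rest on the spread between libraries alone. For the changes below the cause was not tested, beyond fewer libraries or more genes tested.

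Between exGut and emGut, quantile normalization called 2 members higher in place of 1 (Sycp1 added, 1.00, adjusted p = 0.0370), and a region covariate called 584 genes in place of 313. Sycp1 had passed the filter through exGut libraries alone, so its added call is a description only. In midgut, 0 members in place of 1 were called without the filter, without the trend, with the replicate block (adjusted p = 0.0583 for Rec8) and without emMidgut replicates 1 and 3, and genes called went from 316 to 171 without the filter and 118 without those libraries, of which 71.2% were higher against 47.2%. In hindgut, no filter called 223 genes in place of 377. The region difference called 13 genes, 0 with a pseudocount of 0.1 (limma, 1049 genes at an unadjusted p under 0.05 in the main setting), 8 without the filter, 8 without the trend, 8 with the replicate block and 5 without emMidgut replicates 1 and 3, and without the filter 25% were higher against 46.2%. Against YsEndo, quantile normalization called 1 member higher in place of 3, and genes called higher fell from 76.3% to 49.7% of calls, or 54.8% with median-ratio rescaling. In colon, 10 genes were called with a pseudocount of 0.1 and 8 without the filter, in place of 30. In small intestine, 8 were called without the filter and 42 without the trend, in place of 84, with 87.5% higher without the filter against 69%. From exEndo 1 to exGut, FPKM called 1 member lower in place of 2, and the higher share of calls went from 62.1% to 49.4% with quantile normalization. From Epi to emGut, 0 members in place of 1 were called higher without the filter, with FPKM, quantile normalization, median-ratio rescaling or the replicate block (adjusted p = 0.0513 for Rec8), and the higher share went from 75.4% to 48.6% and 57% with the rescalings.

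Quantile normalization moved the median log2 change of all genes from 0.09 to -0.12 for exEndo 1 against Epi, from 0.05 to -0.12 for exEndo 2 against Epi, from 0.23 to -0.0039 in colon, from 0.11 to -0.014 over both organs, from 0.13 to -0.038 for exGut against exEndo 1 and from 0.30 to -0.10 for emGut against Epi.

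Leaving out each library in turn gave 208 to 359 genes and 0 to 1 members called higher in midgut, 236 to 311 genes in hindgut, 3 to 19 genes for the region difference, 2 to 21 genes in colon, 27 to 68 genes and 0 to 1 members higher in small intestine, and 0 to 1 members higher over both organs. Members called lower numbered 1 to 2 for exEndo 1 against Epi, exEndo 1 against exEndo 2 and exGut against exEndo 1, and members called higher 0 to 1 for emGut against Epi. The replicate block changed no other call of a member. Outside exEndo 1 and exEndo 2, whether the replicate numbers pair the samples is unknown. With the block, 275 genes were called between exGut and emGut.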
